A study of Capra hircus with 6 samples.

Results

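A set of 10 genes of the WNT/β-catenin pathway were followed in dermal papilla cells of cashmere goat secondary hair follicles (SHF-DPCs) cultured with or without all-trans retinoic acid (ATRA). They were taken by symbol as a fixed set. It holds 7 secreted WNT inhibitors (DKK1, DKK2, DKK3, SFRP1, SFRP2, SFRP4 and WIF1) and 3 genes whose products act in, or are transcribed by, the β-catenin/TCF response (LEF1, AXIN2 and TCF7). Of these 10 genes, 8 were among the 15944 genes of the count table, and 7 had enough reads to enter the test with 12588 genes in all. DKK1 and DKK2 were not analysed here, because no row carries either symbol. RNA-seq was done on 3 control libraries, from cells grown without ATRA, and 3 ATRA libraries, from cells given 100 µM ATRA for 24 h. All were wild-type primary cultures grown out of secondary follicles from the scapular skin of 3-year-old Albas cashmere goats, and the methods state that the cells came from 3 separate animals, without saying whether both groups share them. ATRA is the vitamin A metabolite that activates the retinoic acid receptors.

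In canonical WNT signaling, a secreted WNT ligand binds a Frizzled receptor and the co-receptor LRP5 or LRP6, which stops the destruction complex from degrading β-catenin. β-Catenin then enters the nucleus and joins LEF1 and the TCF factors on target genes such as AXIN2. Secreted inhibitors hold the pathway back outside the cell, either by binding the ligand (the SFRP proteins and WIF1) or by occupying the co-receptor (DKK1 and DKK2). In the hair follicle this pathway is known for its part in follicle formation and in the start of the growth phase.

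Total counts were 35532339 to 38012771 per library. Counts were scaled by TMM, and levels are given as normalized CPM, the reads on a gene relative to the scaled depth of its library. TMM factors averaged 0.847 for control libraries and 1.18 for ATRA libraries. Dividing by library size only, without these factors, would move the median log2 fold change (log2FC) of all tested genes from 0.038 to 0.52, so that every log2FC here is relative to the scaling. Of the markers fixed for the labelled cell type, PROM1 (which encodes CD133), CORIN, ALPL, SOX2, SOX18 and CRABP1 were below 1 normalized CPM in both groups. The other 7 were above 1 in the control group. The summed level of all 13 dermal papilla markers was 8305 to 9243 normalized CPM in the control libraries and 102 to 103 with ATRA. Most of the control sum came from ACTA2, which encodes α-smooth muscle actin (6582 normalized CPM without and 8.37 with ATRA). VCAN went from 1641 to 32.4 and BMP4 from 406 to 15.9, while FGF7 changed little (25.7 and 21.9). By the thresholds used below, 5 of the markers fell and 0 rose. That of 8 mesenchymal markers was 79708 to 81050 and 4568 to 4885, with 7 markers lower. Summed levels of other cell types ranged from 0.560 to 0.773 and 0.628 to 0.998 for 7 keratinocyte markers, 0.903 to 1.24 and 6.19 to 9.16 for 5 endothelial markers, 9.27 to 12.9 and 41.3 to 44.2 for 5 leukocyte markers, 3.80 to 4.30 and 1.97 to 2.34 for 2 melanocyte markers, and 0 to 0.032 and 0 to 0.046 for 1 Schwann cell marker. The endothelial and leukocyte rises came mostly from PECAM1 (0 normalized CPM in the control group, 6.10 with ATRA), CD14 (6.91 and 31.3) and CD68 (log2FC 1.41). The endothelial marker TEK also went up, from 0.619 to 1.13 (log2FC 0.87, edgeR adjusted p = 0.0122). Of the other endothelial markers, VWF had 0.229 and 0.241, KDR 0.219 and 0.0230, and CDH5 group means below 0.1. Of the other leukocyte markers, CSF1R had 0.126 and 0.117, and CD3E and ITGAM group means below 0.1. The part of these shifts in the results below was not tested.

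Of the 4 secreted inhibitors that could be tested, 3 fell with ATRA and 0 rose. WIF1 fell most, to a few reads per library, DKK3 and SFRP4 fell with a log2FC of -1.34 and -1.42, and SFRP1 did not pass the test, with overlapping groups. A gene was called higher or lower where the absolute log2FC exceeded 1 with an unadjusted p under 0.05 in edgeR's quasi-likelihood test. The same rule called 31.0% of all tested genes, 13.7% higher and 17.3% lower. The median log2FC was -1.38 over the 4 inhibitors and 0.038 over all genes tested. Bulk counts cannot separate fewer cells of a type from less RNA per cell.

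WIF1 encodes WNT inhibitory factor 1, which binds WNT ligands through its WIF domain. The control libraries held 98, 82 and 94 reads of WIF1, and the ATRA libraries held 6, 6 and 7. Every ATRA library thus lay far below every control library. The ATRA libraries differed by less than counting alone gives (SD over mean 12.4%, against 39.7% from counting). Their SD therefore understates the uncertainty of so few reads. The level was 2.87 ± 0.315 normalized CPM without and 0.148 ± 0.0184 with ATRA (SD, n = 3 each). The log2FC of WIF1 was -4.25 (standard error 0.300, edgeR adjusted p = 2.54e-10), a 19.0-fold lower level with a 95% interval from 12.3-fold to 29.5-fold. Only 308 of the 12588 genes tested had a lower log2FC. Leaving out single libraries gave a log2FC of WIF1 from -4.36 to -4.19, a prior count of 2 gave -3.86, and library size only gave -3.78. A pseudocount of 1 normalized CPM, which is above the level left with ATRA, gave -1.75.

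DKK3 belongs to the Dickkopf family by sequence, although it does not share the co-receptor binding of DKK1 and is known less as a WNT antagonist than as a growth-suppressing secreted protein. It took most of the reads among these inhibitors, with 1402, 1438 and 1322 in the control libraries and 722, 813 and 681 with ATRA. The groups were apart by more than the range inside either of them. Its level went down to 17.2 ± 1.08 from 43.6 ± 2.14 normalized CPM (SD, n = 3 each). The log2FC of DKK3 was -1.34 (standard error 0.0776, edgeR adjusted p = 1.30e-11), which is 2.53-fold lower with a 95% interval from 2.26-fold to 2.84-fold. The log2FC of DKK3 with library size only was -0.86 (edgeR adjusted p = 4.13e-08), still lower but short of the fold threshold.

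The SFRP genes encode decoys that carry the cysteine-rich WNT-binding domain of Frizzled receptors. SFRP1 held 85, 69 and 86 reads in the control libraries and 104, 118 and 94 with ATRA. These raw counts were higher in all 3 ATRA libraries, but after scaling the groups overlapped. Its level was 2.52 ± 0.333 normalized CPM without and 2.45 ± 0.206 with ATRA (SD, n = 3 each). The log2FC of SFRP1 was -0.036 (standard error 0.184, edgeR adjusted p = 0.863), with a 95% interval from -0.42 to 0.35. That interval leaves room for a change of up to 1.34-fold lower or 1.28-fold higher. The sign of SFRP1 depended on the scaling and on single libraries, with a log2FC of 0.44 (edgeR adjusted p = 0.0330) with library size only and 0.022 without Control replicate 1.

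SFRP4 was measured on few reads, 19, 9 and 16 in the control libraries and 6, 10 and 6 with ATRA. In raw counts the groups overlapped, and after scaling all ATRA libraries lay below all control libraries. The level was 0.463 ± 0.170 normalized CPM without and 0.170 ± 0.0491 with ATRA (SD, n = 3 each). The log2FC of SFRP4 was -1.42 (standard error 0.457, edgeR adjusted p = 0.00887), and its 95% interval ran from -2.38 to -0.45. The call was lost with library size only, where the log2FC of SFRP4 was -0.94 (edgeR adjusted p = 0.0647). Without Control replicate 1, the library with the most SFRP4 reads, the log2FC was -1.18, still a call by the unadjusted p, with an edgeR adjusted p of 0.0621.

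SFRP2 is known as a gene of dermal fibroblasts and papilla cells, but it was barely detected in these cultures. The control libraries held 0, 1 and 1 reads of SFRP2 and the ATRA libraries 1, 4 and 1, so the gene did not enter the test. The ratio of summed reads, corrected for scaled library size, was 2.23 with an exact 95% interval from 0.398 to 22.6 that covers counting error only. These few reads therefore do not tell whether SFRP2 rose, fell or stayed level.

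**Figure D1:**
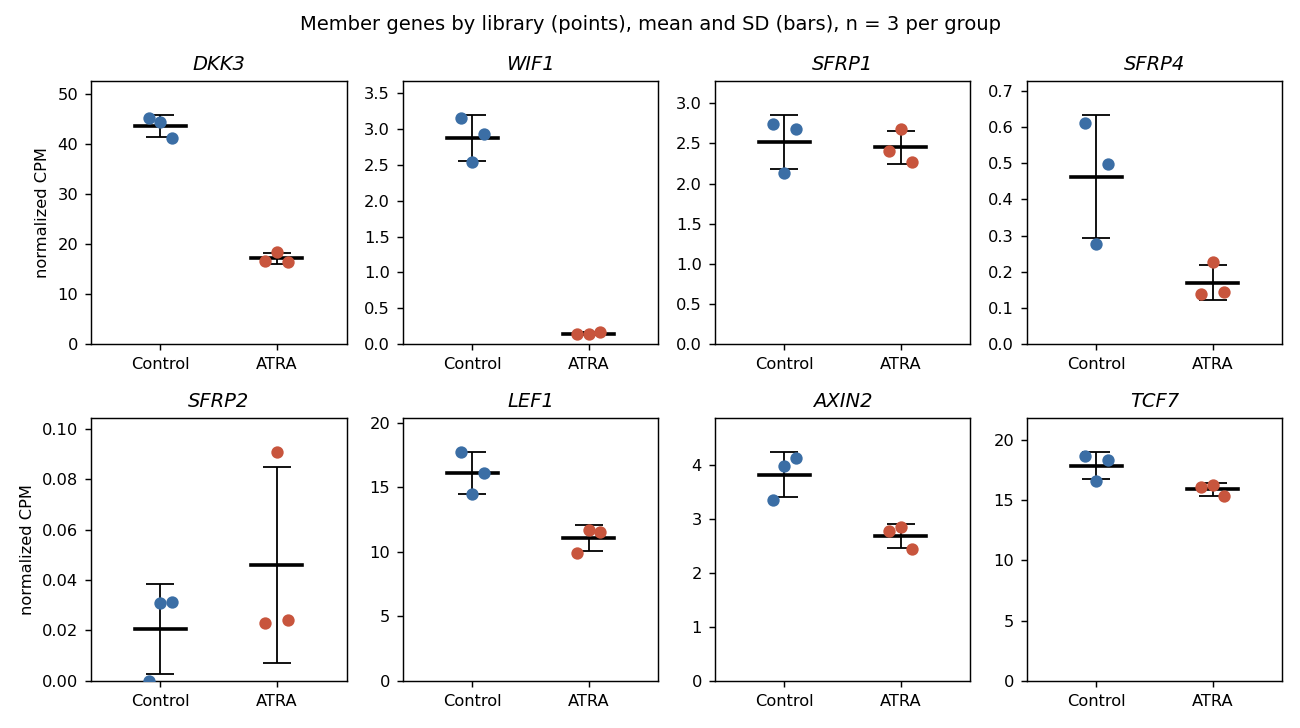
Normalized CPM (y axis, linear, from 0) of the 8 measured genes in each control and ATRA library, with the mean as a thick bar and the SD as whiskers (n = 3 per group). WIF1 goes from 2.87 to 0.148 and DKK3 from 43.6 to 17.2 on average, while the SFRP1 and SFRP2 points of the groups overlap.

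DKK3 set most of the summed level of the secreted inhibitors. The 5 genes with a row together had 51.7, 49.4 and 47.3 normalized CPM in the control libraries and 19.4, 21.6 and 19.1 with ATRA. The sum was 2.47-fold lower on average, and 1.77-fold lower with library size only. Between 87.0% and 89.9% of these reads came from DKK3 in the control libraries and between 85.5% and 86.3% with ATRA. Without DKK3 the sum went down to 2.82 ± 0.276 from 5.87 ± 0.798 normalized CPM (SD, n = 3 each). Shares count reads without a correction for transcript length, so they do not rank the genes by number of transcripts.

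Behind DKK3, WIF1 held the most inhibitor reads in the control group and SFRP1 with ATRA. WIF1 gave 5.81% ± 0.591 of all reads of the set in the control group and 0.744% ± 0.131 with ATRA (SD, n = 3 each). SFRP1 gave 5.09% ± 0.697 and 12.2% ± 0.282 (SD, n = 3 each). Ratios inside a library do not depend on the scaling. SFRP1 had 5.69 times the reads of SFRP4 in the control group and 14.7 times with ATRA, as geometric means over 3 libraries each. The groups did not overlap for this ratio (exact permutation test over libraries, two-sided, p = 0.1, which is the lowest value reachable with 3 libraries per group). A further pair of ratios, chosen after the values were seen, is given as a description with no test. SFRP1 had 0.874 times the reads of WIF1 in the control group and 16.6 times with ATRA. DKK3 had 17.4 times the reads of SFRP1 in the control group and 7.02 times with ATRA.

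**Figure D2:**
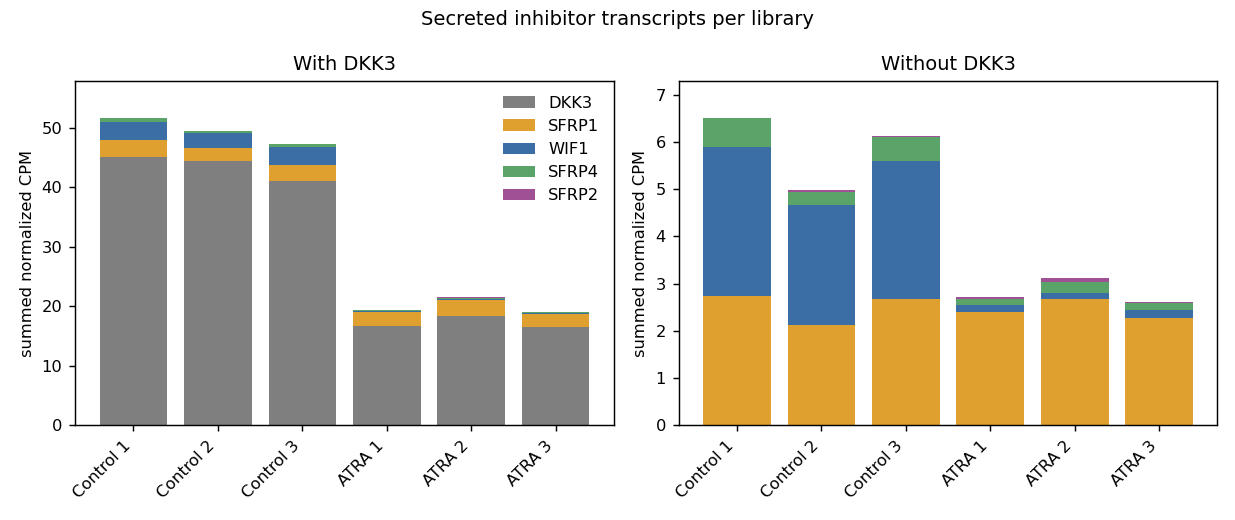
Stacked bars of normalized CPM (y axis, linear, from 0) of the secreted inhibitor genes in each of the 6 libraries, with DKK3 (left) and without it (right). The sums with DKK3 are 47.3 to 51.7 in the control libraries and 19.1 to 21.6 with ATRA, and the WIF1 part of the right panel is almost gone with ATRA.

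None of the genes of the β-catenin/TCF response passed the fold threshold. At an adjusted p under 0.05, LEF1 and AXIN2 were lower in the ATRA libraries and TCF7 was not. An adjusted p under 0.05 was reached by 79.7% of all tested genes, 38.7% in the lower and 40.9% in the higher direction, so this criterion alone marks most genes of the table. The median log2FC of these 3 genes was -0.51.

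LEF1 encodes lymphoid enhancer-binding factor 1, the DNA-binding partner of β-catenin and a known marker of the dermal papilla and hair matrix. It held 550, 468 and 518 reads in the control libraries and 430, 517 and 478 with ATRA. The raw counts overlapped, and after scaling the ATRA libraries all lay below the control libraries. The level of LEF1 was 16.1 ± 1.63 normalized CPM without and 11.1 ± 0.978 with ATRA (SD, n = 3 each). Its log2FC was -0.54 (standard error 0.103, edgeR adjusted p = 0.000108), which is 1.45-fold lower with a 95% interval from 1.25-fold to 1.69-fold. Leaving out single libraries gave a log2FC of LEF1 from -0.62 to -0.47, and DESeq2 gave -0.56. For LEF1, library size only gave a log2FC of -0.061 (edgeR adjusted p = 0.586).

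AXIN2 encodes a scaffold of the β-catenin destruction complex and is widely used as a direct readout of β-catenin activity. The control libraries held 104, 129 and 133 reads of AXIN2 and the ATRA libraries 120, 126 and 101. As for LEF1, the raw counts overlapped and the scaled levels did not. AXIN2 had 3.83 ± 0.419 normalized CPM without and 2.69 ± 0.221 with ATRA (SD, n = 3 each). Its log2FC was -0.51 (standard error 0.165, edgeR adjusted p = 0.00924), with a 95% interval from -0.85 to -0.16. Without single libraries the log2FC of AXIN2 ranged from -0.60 to -0.45, and DESeq2 gave -0.53. Library size only gave a log2FC of AXIN2 of -0.029 (edgeR adjusted p = 0.874).

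TCF7 encodes TCF1, a factor of the same family as LEF1. Its counts were 580, 536 and 589 in the control libraries and 695, 719 and 634 with ATRA. All ATRA libraries were above the control libraries in raw counts and below them after scaling. The level of TCF7 was 17.9 ± 1.13 normalized CPM without and 15.9 ± 0.514 with ATRA (SD, n = 3 each). The log2FC was -0.17 (standard error 0.0861, edgeR adjusted p = 0.0827), and it turned to 0.31 (edgeR adjusted p = 0.00307) with library size only. The ratio of both genes is free of the scaling: LEF1 had 0.900 times the reads of TCF7 in the control group and 0.695 times with ATRA. The groups did not overlap for this ratio (exact permutation test over libraries, two-sided, p = 0.1, the smallest possible).

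**Figure D3:**
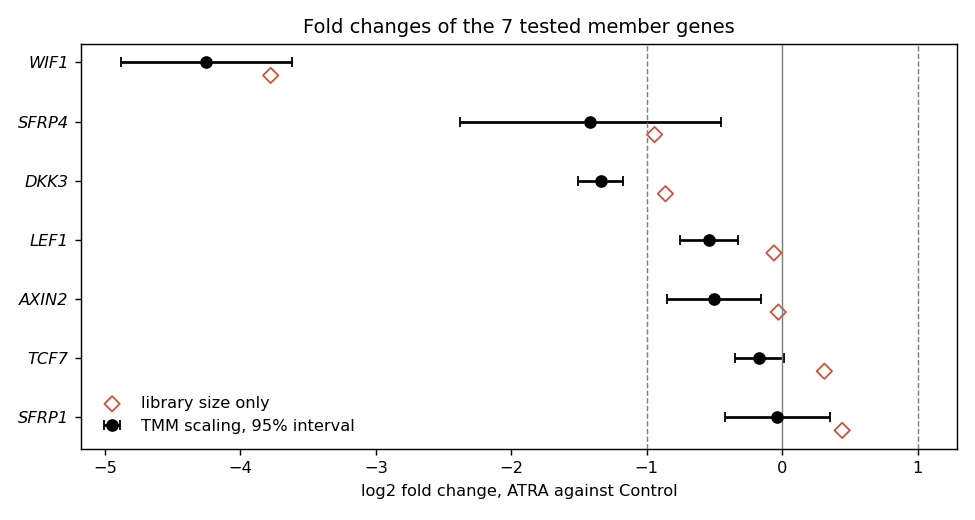
Log2 fold change of ATRA against control (x axis) of the 7 tested genes, with TMM scaling and its 95% interval (black) and with library size only (open diamonds). The dashed lines mark the fold threshold. WIF1, at -4.25, is beyond it with both scalings, while SFRP1 and TCF7 cross 0 between them.

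Among the 7 tested genes, 3 were called lower and 0 higher, and 6 had all ATRA libraries below all control libraries after scaling. Groups were apart for 80.1% of all tested genes, with ATRA below for 39.0% and above for 41.2%. Under library size only, 2 genes (DKK3 and WIF1) had all ATRA libraries below the control libraries and 2 (SFRP1 and TCF7) had them above, against 23.0% and 63.1% of all tested genes under that scaling. In the order of log2FC from the lowest of all tested genes, WIF1 stood at percentile 2.45, SFRP4 at 12.2, DKK3 at 13.0, LEF1 at 27.0, AXIN2 at 28.1, TCF7 at 40.8 and SFRP1 at 46.6. The intervals of SFRP4 and DKK3 overlapped, as did those of LEF1, AXIN2 and TCF7, whereas that of WIF1 was apart from all others. The coefficient of variation in the control group was 4.91% for DKK3 against 2.68% from counting alone, and 10.1% against 4.42% for LEF1. TCF7 had 6.35% against 4.19%, and SFRP4 36.7% against 26.1%. Values were nearer to counting for WIF1 (11.0% against 10.5%), SFRP1 (13.2% against 11.2%) and AXIN2 (11.0% against 9.05%).

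**Figure D4:**
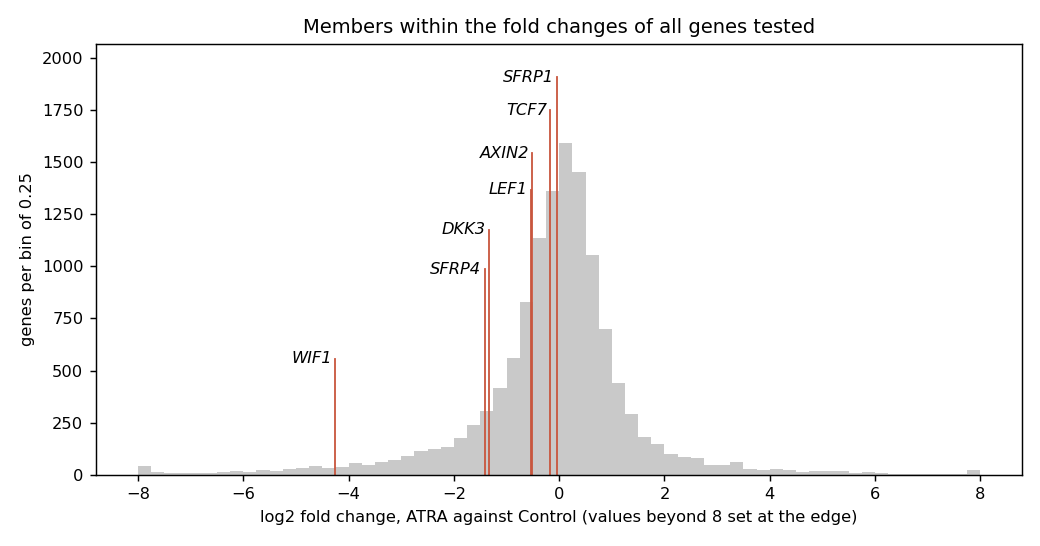
Distribution of the log2 fold change over the 12588 tested genes (grey, bins of 0.25, values beyond 8 placed at the edge) with the 7 tested genes marked by red lines. WIF1 lies in the lower tail, DKK3 and SFRP4 on the lower slope, and LEF1, AXIN2, TCF7 and SFRP1 in the body.

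The annotation in the count table puts 7 of the 8 measured genes, all but DKK3, in the KEGG Wnt signaling pathway. Of 118 tested genes of that pathway, 15 were called higher (12.7%) and 31 lower (26.3%), with a median log2FC of -0.10. The shares over all tested genes were 13.7% and 17.3%. Of 60 tested genes under the GO term negative regulation of canonical Wnt signaling pathway, 8 were higher (13.3%) and 18 lower (30%). Their median log2FC was 0.0059. Positive regulation of the same pathway had 4 higher (8%) and 10 lower (20%) of 50 tested. The term canonical Wnt signaling pathway had 6 higher (15.4%) and 10 lower (25.6%) of 39. Wnt-protein binding had 4 higher (22.2%) and 8 lower (44.4%) of 18. The terms were chosen after values were known and include genes of the set.

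Other extracellular inhibitors moved in both directions. Of 19 listed, 12 had a row and 7 were tested. Of these 7, 2 were called higher and 3 lower, against 13.7% and 17.3% of all tested genes, with a median log2FC of -0.49. NOTUM, a secreted enzyme that removes the lipid WNT ligands need, went from 2, 4 and 3 reads in the control libraries to 54, 35 and 33 with ATRA (log2FC 3.28, standard error 0.454, edgeR adjusted p = 2.73e-06). APCDD1, a membrane-bound inhibitor expressed in hair follicles, rose from 1.88 ± 0.276 to 6.83 ± 0.342 normalized CPM (SD, n = 3 each, log2FC 1.86). IGFBP4, an IGF-binding protein that also antagonizes WNT receptors, went down to 14.9 ± 1.11 from 147.9 ± 5.46 normalized CPM (SD, n = 3 each, log2FC -3.31). TRABD2B, a membrane protease that cleaves WNT ligands, had a log2FC of -2.03. The remaining call was KREMEN1, a receptor for Dickkopf proteins, at -1.03, which fell short of the threshold at -0.99 without Control replicate 3 and at -0.998 without ATRA replicate 3, and also with upper-quartile scaling (-0.95), library size only (-0.55) and the t.test function (-0.99). Among relatives of the members, DKKL1, a Dickkopf-like gene, had 57, 81 and 89 reads in the control libraries and 186, 115 and 173 with ATRA, with overlapping groups after scaling (log2FC 0.64, edgeR adjusted p = 0.0108). FRZB, which encodes SFRP3, had 0 reads in every control library and 1, 3 and 2 with ATRA, SFRP5 had 0 and then 1, 0 and 1, and DKK4 was not analysed here.

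Genes of WNT ligands, R-spondins and receptors were also called in both directions. Of 11 tested ligand and R-spondin genes, 2 were higher and 6 lower, against 13.7% and 17.3% of all tested genes. The median log2FC of these 11 genes was -1.16, which was the same with genes at the floor of 3 reads per library set at their bound. WNT7B had 0 reads in the control libraries and 115, 116 and 96 with ATRA, at least 26.9-fold higher against a floor of 3 reads per library. WNT11 rose with a log2FC of 1.80. WNT2 had 49, 58 and 42 reads in the control libraries and 0 in every ATRA library, at least 22.3-fold lower. RSPO1, whose product amplifies WNT signaling through LGR receptors, fell with a log2FC of -4.95.

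Of 18 tested receptors and co-receptors, 6 were called higher and 8 lower, against 13.7% and 17.3% of all tested genes. The median log2FC of these 18 genes was -0.58. The Frizzled genes FZD7 and FZD3 rose with a log2FC of 4.76 and 4.11. FZD5 fell with -2.31, as did ROR1, a receptor of noncanonical WNT signaling, with -3.77. LRP5, singled out after its values were seen because Dickkopf proteins bind its product, rose from 3.96 ± 0.377 to 11.4 ± 1.42 normalized CPM (SD, n = 3 each, log2FC 1.53). Its partner LRP6 had 17.1 ± 0.927 and 13.7 ± 3.03 (SD, n = 3 each), with overlapping groups and a log2FC of -0.32 that turned to 0.16 with library size only.

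Inside the cell, CTNNB1, which encodes β-catenin itself, went down to 273.6 ± 18.8 from 837 ± 18.2 normalized CPM (SD, n = 3 each, log2FC -1.61, standard error 0.0622, edgeR adjusted p = 2.66e-14). Of 29 tested genes of the pathway machinery, 1 was called higher and 4 lower, against 13.7% and 17.3% of all tested genes. The median log2FC of these 29 genes was 0.10. TLE3, a Groucho-type corepressor that binds TCF factors, rose with a log2FC of 1.16. BCL9, a β-catenin coactivator, fell with -1.72. TCF7L1 and TCF7L2, the other members of the LEF1 and TCF7 family, had a log2FC of -1.44 and 0.60. Under library size only, 8 genes of the machinery were higher and 2 lower, against 3390 and 1471 of all 12588 tested genes. The values of TCF7L1 and TCF7L2 under that scaling were -0.96 and 1.08.

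Other genes known as β-catenin targets gave no common direction. Of 19 tested, 6 were called higher and 6 lower, against 13.7% and 17.3% of all genes, with a median log2FC of 0.15. NRCAM, a neural cell adhesion gene, had 5, 7 and 3 reads in the control libraries and 743, 985 and 898 with ATRA (log2FC 6.99). The feedback targets among them differed in direction. NOTUM and APCDD1 rose as given above, NKD1, an intracellular inhibitor, fell from 772, 733 and 721 reads to 101, 74 and 76 (log2FC -3.58), and ZNRF3, which encodes a ligase that removes Frizzled receptors, had a log2FC of 0.091 with overlapping groups. BIRC5, which encodes survivin and is also a gene of dividing cells, fell with a log2FC of -5.01, and BMP4, also a gene of the dermal papilla, with -4.67.

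**Figure D5:**
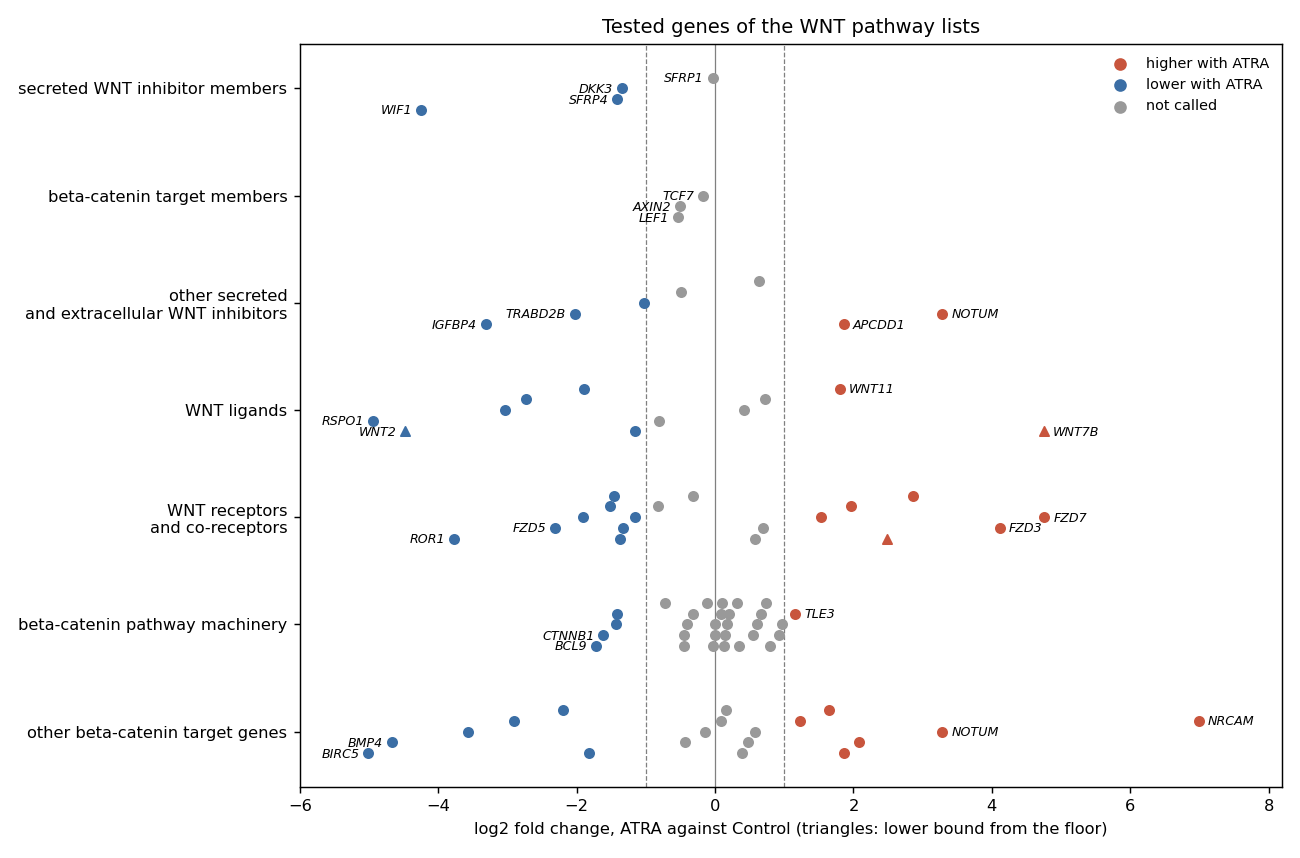
Log2 fold change of ATRA against control (x axis) for each tested gene of the WNT lists (rows), in red where called higher, blue where called lower and grey otherwise, with triangles for genes shown at the lower bound set by a group at the floor. The inhibitor row of the set holds 3 blue points and 0 red ones, while the lists of receptors and of targets hold both colours.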

How the data were processed

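RNA was measured in 3 control and 3 ATRA-treated SHF-DPC cultures. The authors captured mRNA with oligo(dT) beads, cleaned reads with fastp and TrimGalore, and deposited unnormalized counts of reads per gene. The submitters' processing notes name HISAT2, featureCounts and DESeq2. The genome build is not given in the sources used here, so no coordinates are printed.

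Genes passing edgeR's expression filter (12588 of 15944) were TMM-scaled and entered edgeR's robust quasi-likelihood test, two-sided, with no covariate. Adjustment was by Benjamini-Hochberg over all tested genes. The thresholds and the t.test function of R, run as an alternative, follow the methods of the study. Standard errors are the absolute log2FC over the square root of F. The labels give a single batch. The p-values of edgeR rest on the spread between these 3 cultures per group, with the spread of each gene drawn towards that of all tested genes. The t.test function, which uses the spread of each gene alone, gave an adjusted p of 0.000603 for DKK3 and 0.00392 for WIF1. Intervals on reads cover counting error only.

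The members and lists were chosen with earlier results of these data known. Named genes are the members, their close relatives and CTNNB1, and up to 2 called genes in each direction per list. KREMEN1, DKKL1, LRP5, LRP6, NKD1, ZNRF3 and the markers named were added after values were seen. CCN4 and TLE5 were matched under older symbols, and TLE1 and CSNK1E under LOC rows. Antisense or overlapping genes cannot be separated, since strand is not stated.

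No pair of libraries of a group matched within sampling noise (chi-square per degree of freedom 5.01 to 18.4). The test was checked on simulated counts in which 200 genes were changed, as many up as down. That check does not cover a difference in scaling between the groups such as the one here. Computation used edgeR 4.0.16 with limma 3.58.1 under R 4.3.3, plus DESeq2 1.42.0 as an alternative. Figures used matplotlib 3.10.9 in Python 3.11.15.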

Additional observations from a re-analysis of the deposited data

How the results depend on the processing

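All counts of calls and named genes were recomputed under other scalings, filters and thresholds, DESeq2, the t.test function, a replicate block, and without each library in turn. The 3 secreted inhibitors called lower became 1 with library size only and 1 with an absolute log2FC above 2. The β-catenin response genes called lower went from 0 to 2 with an adjusted p under 0.05 and no minimum fold. SFRP1 turned positive with upper-quartile scaling (0.041) and library size only (0.44), and ranged from -0.15 to 0.022 without single libraries. Under library size only, TCF7 (0.31) and LRP6 (0.16) turned too. The shift of the median by that scaling moves every gene up. SFRP4 did not enter the filter at a CPM of 1 in 3 libraries. SFRP4 and NOTUM lost the call under the t.test function on log2(CPM + 1), where their log2FC was -0.32 and 0.82, and KREMEN1 lost it there (-0.99), with upper-quartile scaling (-0.95) and with library size only (-0.55).

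Among all tested genes, 1730 were higher and 2174 lower (44.3% higher). The higher count was 3390 with library size only (69.7% of calls higher), 1093 with the t.test function, 5151 with an adjusted p and no minimum fold, and 669 with an absolute log2FC above 2. The lower count was 4877 and 1035 under the last 2 settings. The other extracellular inhibitors called higher numbered 1 with the filter at a CPM of 1, 5 with no filter, 1 with the t.test function and 1 with an absolute log2FC above 2. With that fold, the ligands called higher were 1, the receptors lower 2, the machinery genes 0 in both directions and the targets higher 3. With library size only, 4 receptors were lower, and 8 machinery genes were higher and 2 lower. Upper-quartile scaling gave 3 higher machinery genes. With no minimum fold, 13 machinery genes were higher and 8 lower. The causes were not tested, other than the construction of each threshold.

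The titles number the libraries of both groups 1 to 3 without saying what the numbers share. Deviations from the group means correlated across genes, for the same number, between -0.0764 and 0.0892, and Control replicate 3 correlated best with ATRA replicate 2. With the replicate number as a block, 1731 genes were higher and 2178 lower, and 3 secreted inhibitors were lower. No call of a named gene changed. Leaving out any single library moved no count of calls by over 1.5 times, and KREMEN1 alone of the named genes lost its call. Depth limits SFRP2 and SFRP4, with at most 4 and 19 reads in a library.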
